A study of Mus musculus with 9 samples.

Results

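The genes described here encode mouse MAP kinase phosphatases, enzymes that switch off MAP kinases, and Dusp7 gave the set its name. The members were taken by gene symbol: Dusp1, Dusp2, Dusp4, Dusp5, Dusp6, Dusp7, Dusp8, Dusp10, Dusp14 and Dusp16, which are 10 of the 19505 genes that the platform annotation named on the arrays. Each of the 10 had 1 probe set. Dusp7 was selected on its measured log2 signals in these arrays, in which it was the 1 member called as different between ob/ob and wild-type brain, and the others were added as its family. Its differences are therefore a description, without a test.

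Brain RNA of male mice was hybridised to 9 Clariom S arrays, 3 for every group. Wild-type C57BL/6JHamSlc-+/+ mice were given vehicle. C57BL/6JHamSlc-ob/ob mice, which lack functional leptin throughout the body and become obese, were given either vehicle or a Vigna umbellata extract (VE) at 100 mg/kg body weight by oral gavage for 42 days. All mice arrived at 6 weeks of age, were acclimatized for 1 week, and had standard chow and tap water freely. The labels named no brain region. The design text also spoke of white adipose tissue. In these arrays the 6 measured neuronal markers were all above the median level of the probe sets, while 0 of 5 measured adipocyte markers were, and the mean of those 5 stayed between 5.30 and 5.67 log2 units on the 9 arrays. The samples count as separate mice only as far as the labels say, so the spread between arrays may be technical in part. Bulk tissue cannot tell fewer cells of a type from less RNA per cell.

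A MAP kinase is active when both a threonine and a tyrosine in its activation loop carry phosphate. MAP kinase phosphatases remove both. Dusp1, Dusp2, Dusp4 and Dusp5 act in the nucleus and are made quickly after a cell is stimulated. Dusp6 and Dusp7 are cytoplasmic and prefer ERK. Dusp8, Dusp10 and Dusp16 prefer the stress kinases JNK and p38. Dusp14 is a small atypical member that lacks the kinase-binding region of the others. Several of these genes are transcribed in response to the kinase that they later switch off, a negative feedback, and in the brain neuronal activity is one such stimulus.

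Promoter sequence was available for 9 of the 10 members, from RefSeq on GRCm38.p6. The 250 bases before the start of 5 of them are shown 5′ to 3′ on the gene's strand, namely Dusp7 and Dusp6, the cytoplasmic pair whose groups fell in different orders, and the 3 members that matched a site of an activity-responsive factor. They lie at chr9:106368382-106368631 (plus strand, Dusp7), chr10:99262981-99263230 (plus strand, Dusp6), chr19:53528895-53529144 (plus strand, Dusp5), chr17:26508473-26508722 (minus strand, Dusp1) and chr7:142095285-142095534 (minus strand, Dusp8). Capitals mark matches to the cAMP response element (CRE, TGACGTCA), the CArG box of serum response factor, or the CCAAT box (CCAAT, which reads ATTGG on the other strand).
Dusp7: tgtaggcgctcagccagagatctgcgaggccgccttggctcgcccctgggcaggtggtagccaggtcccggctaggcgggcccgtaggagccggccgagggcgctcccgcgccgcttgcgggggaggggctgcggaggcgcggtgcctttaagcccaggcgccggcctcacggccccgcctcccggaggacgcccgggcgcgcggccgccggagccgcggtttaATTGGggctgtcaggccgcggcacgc
Dusp6: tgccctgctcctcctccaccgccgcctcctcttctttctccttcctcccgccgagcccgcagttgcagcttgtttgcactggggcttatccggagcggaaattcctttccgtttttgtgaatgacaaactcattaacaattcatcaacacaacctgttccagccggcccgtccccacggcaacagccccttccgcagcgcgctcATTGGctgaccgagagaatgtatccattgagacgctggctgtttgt
Dusp5: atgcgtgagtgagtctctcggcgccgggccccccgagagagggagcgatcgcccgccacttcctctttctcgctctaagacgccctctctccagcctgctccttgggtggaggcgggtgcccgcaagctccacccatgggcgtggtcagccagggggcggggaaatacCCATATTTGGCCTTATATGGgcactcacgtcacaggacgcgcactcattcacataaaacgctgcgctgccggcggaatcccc
Dusp1: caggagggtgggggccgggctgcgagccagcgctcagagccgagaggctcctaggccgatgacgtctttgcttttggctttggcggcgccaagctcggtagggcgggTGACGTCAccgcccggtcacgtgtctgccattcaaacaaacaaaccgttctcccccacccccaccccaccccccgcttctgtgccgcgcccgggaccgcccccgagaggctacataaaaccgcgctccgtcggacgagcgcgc
Dusp8: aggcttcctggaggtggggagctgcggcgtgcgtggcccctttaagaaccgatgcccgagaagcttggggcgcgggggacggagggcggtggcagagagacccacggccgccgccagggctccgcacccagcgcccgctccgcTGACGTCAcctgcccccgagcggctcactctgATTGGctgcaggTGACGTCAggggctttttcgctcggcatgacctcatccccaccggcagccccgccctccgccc

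The promoters of Dusp1 and Dusp8 held the full CRE, starting 143 bases before the start in Dusp1 and 107 and 63 bases before it in Dusp8. Of 32851 promoter windows of the same length in the table, 1.55% held a CRE. Dusp5 carried 2 adjoining CArG boxes, starting 82 and 72 bases before its start, and 1.47% of all windows held one. Neither motif was found in the Dusp7 or Dusp6 window, where 1 CCAAT box each began 26 and 46 bases before the start. CCAAT boxes stood in 5 of the 9 members and in 33.8% of all windows, and GC boxes (GGGCGG) in 7 of the 9 and in 32.7%. No member matched AP-1 (TGANTCA, 6.75% of windows), the ETS core (CCGGAAG, 6.91%) or the EGR site (GCGTGGGCG, 0.536%). Both strands were searched. A CArG box (CC, a run of A or T, then GG) can contain a CCAAT box, but the 2 in Dusp5 do not. Among the other motifs none contains another. The windows of the members were rich in G and C, from 56.4% in Dusp6 to 77.2% in Dusp7, against a median of 52.4% over all windows. A match describes letters in these windows, not a site in use, and no match says only that the letters are not there.

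Values are log2 signals, so that 1 unit is a doubling, and probe sets are compared across arrays only, never with each other. A probe set was called where limma's adjusted p over all 22206 probe sets was under 0.05. VE array 2 was unlike the rest. It correlated with them at 0.962 to 0.970, where the other 8 correlated at 0.979 to 0.993, and its probe sets had an SD of 2.38, where those of the others had 2.56 to 2.84. By this rule the calls took in 1.27% of probe sets in ob/ob vehicle against wild type (0.536% higher, 0.73% lower), 0.486% in VE against ob/ob vehicle (0.0135% higher, 0.473% lower) and 0.0991% in VE against wild type (0 higher). The first count fell to 0 without ob/ob array 2, ob/ob array 3, wild-type array 2 or wild-type array 3 and was 2975 without VE array 2. Of the 281 calls 42.3% were higher in ob/ob, against 60.4% of 631 after quantile normalization, 60.0% of 808 after cyclic loess and 27.0% of 614 with arrays centred on their medians. In VE against ob/ob vehicle 2.78% of 108 calls were higher, against 18.5% of 324 after quantile normalization, 17.3% of 376 after cyclic loess and 28.0% of 418 after quantile normalization without VE array 2. In VE against wild type 0% of 22 calls were higher, against 36.8% of 19 after quantile normalization without VE array 2.

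Dusp7 stood highest in wild-type brain, lowest in ob/ob brain given vehicle, and between them after VE. Its log2 signals were 10.18, 10.01 and 9.95 in wild type, 8.83, 8.32 and 8.46 in ob/ob given vehicle, and 9.18, 9.21 and 9.32 in ob/ob given VE. The 3 groups did not overlap, and the VE arrays lay closest together (SD 0.0737, against 0.119 in wild type and 0.264 in ob/ob vehicle, n = 3). The ob/ob mean was lower than wild type by 1.51 log2 units (SE 0.200), a 2.85-fold difference in linear signal. The VE mean was above ob/ob vehicle by 0.70 (SE 0.200) and below wild type by 0.81 (SE 0.200). The same order without overlap held after quantile normalization, with 9.83 or more in wild type, 8.38 to 8.77 in ob/ob vehicle and 9.08 to 9.62 in VE. Over the alternatives the ob/ob difference ran from -1.66 to -1.33 and the VE difference from ob/ob vehicle from 0.59 to 0.85. The VE difference from wild type ran from -0.86 to -0.55, the latter after quantile normalization. The member count of 1 called in ob/ob vehicle against wild type was Dusp7, beside 1.27% of all probe sets called and 0.73% called lower, and it was 0 without any single one of ob/ob arrays 2 and 3 and wild-type arrays 1, 2 and 3.

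**Figure D1:**
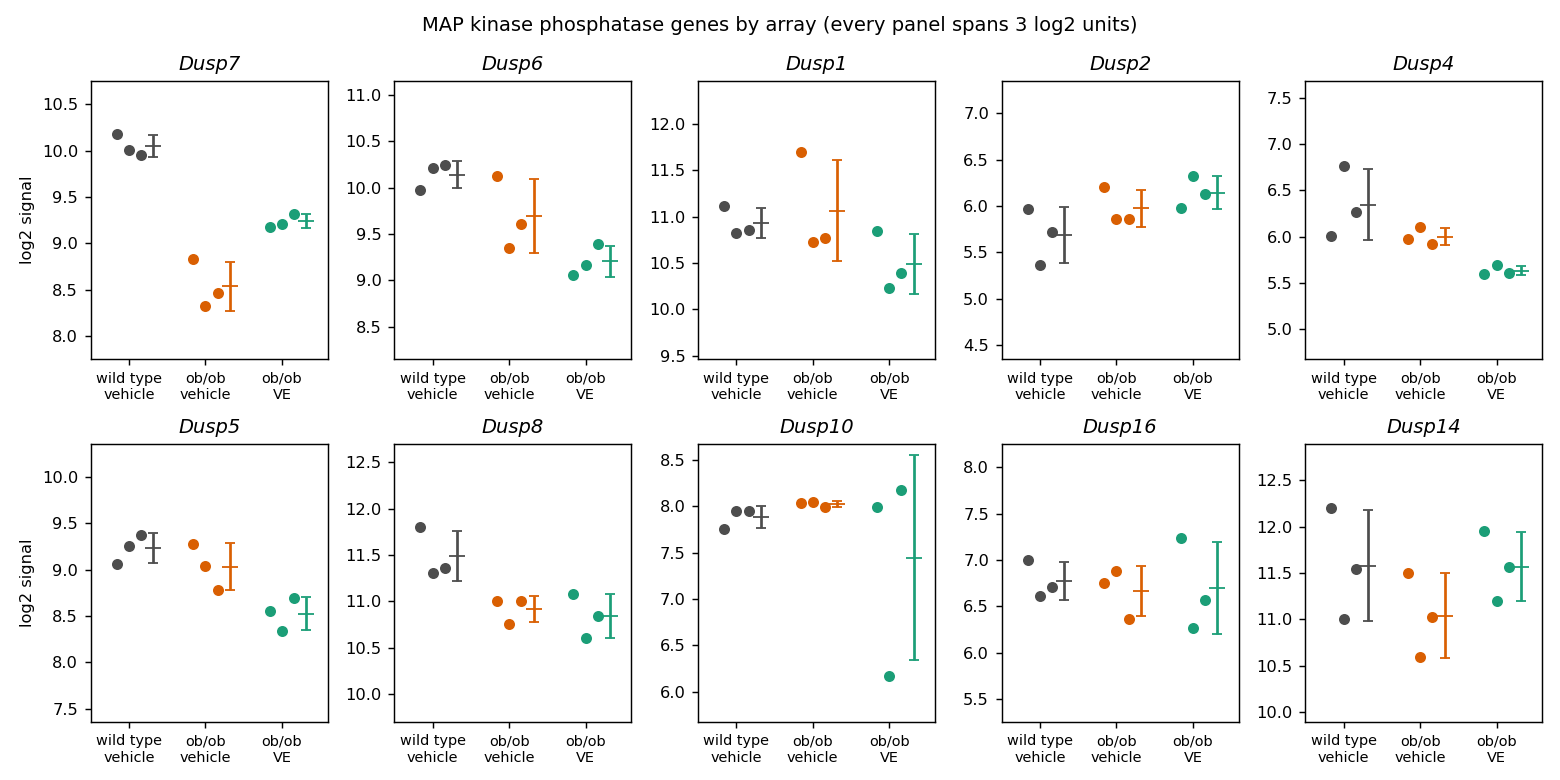
Log2 signal (vertical axis, each panel spanning 3 units) of the 10 phosphatase genes in wild-type vehicle, ob/ob vehicle and ob/ob VE brain (horizontal axis), with 1 point per array and, beside the points, the group mean with its SD (n = 3). Dusp7 separates all 3 groups. Dusp1, Dusp4, Dusp5, Dusp6, Dusp8 and Dusp10 have their lowest means in the VE group, and the second VE array of Dusp10 lies at 6.17.

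Markers of several cell types were lower in ob/ob vehicle than in wild type, as Dusp7 was, and 0 markers were called by limma in VE against ob/ob vehicle. The thalamic marker list (mean log2 signal over 6 measured markers) spanned 9.43 to 10.02 in wild type, 8.53 to 8.97 in ob/ob vehicle and 9.32 to 9.51 in VE, with 2 of 6 called lower in ob/ob vehicle than in wild type. The astrocyte list (7 of 7 markers measured) spanned 12.18 to 12.34, 11.28 to 11.66 and 11.15 to 11.77 in the same order of groups, with 3 of 7 called lower. Oligodendrocyte markers (6 of 7 measured) spanned 11.28 to 12.09, 10.32 to 10.87 and 9.84 to 11.21, with 1 of 6 called lower, and microglial markers (6 of 7 measured) 8.33 to 8.52, 7.67 to 7.84 and 7.71 to 7.92, with 1 of 6 called lower. In the thalamic list the VE range lay above ob/ob vehicle and overlapped wild type, while in the other 3 lists it overlapped ob/ob vehicle. The oligodendrocyte and microglial overlap came from VE array 2 (9.84 and 7.71). VE arrays 1 and 3 stood at 11.21 and 11.02, and at 7.91 and 7.92, above all ob/ob vehicle arrays. Within the thalamic list Prkcd was lower in VE (10.51) than in ob/ob vehicle (10.94), while Tcf7l2 was higher (12.26 against 10.81). At unadjusted p under 0.05, 4 of the 6 thalamic markers were higher in VE and 0 lower, beside 3.21% of all probe sets higher. The inhibitory neuron list (6 of 6 measured, 0 called) spanned 11.11 to 11.52 in wild type and 10.60 to 10.91 in ob/ob vehicle. It stood at 11.42, 10.62 and 11.37 in VE, where only VE array 2 overlapped ob/ob vehicle. At the same threshold 4 of its 6 markers were higher in VE than in ob/ob vehicle and 0 lower. Of 4 measured striatal markers 2 were higher and 0 lower. The 7402 brightest probe sets, among which Dusp7 lies, had a median difference of -0.27 in ob/ob vehicle against wild type with the deposited values and -0.04 after quantile normalization. The part of these markers and of brightness in the Dusp7 difference was not tested.

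Dusp6, the other cytoplasmic ERK phosphatase of the set, ran in another order than Dusp7. It stood at 9.97, 10.21 and 10.24 in wild type, at 10.13, 9.35 and 9.61 in ob/ob vehicle, and at 9.06, 9.17 and 9.39 in VE. Here the VE group had the lowest mean, its range overlapping narrowly with ob/ob vehicle and lying apart from wild type. The difference of ob/ob vehicle from wild type was -0.44 (SE 0.229, limma adjusted p 0.295), and that of VE from ob/ob vehicle was -0.49 (SE 0.229, adjusted p 0.377, and -0.27 without ob/ob array 1). VE stood 0.93 below wild type (a difference of -0.93, SE 0.229, adjusted p 0.145, range 0.105 to 0.454 over the alternatives), so no Dusp6 difference passed. After quantile normalization the 3 Dusp6 differences were -0.25, -0.44 and -0.68. Both comparisons with VE share the VE arrays, and both comparisons with ob/ob vehicle share those arrays. Whether the differences of Dusp6 and Dusp7 are unlike was not tested.

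**Figure D2:**
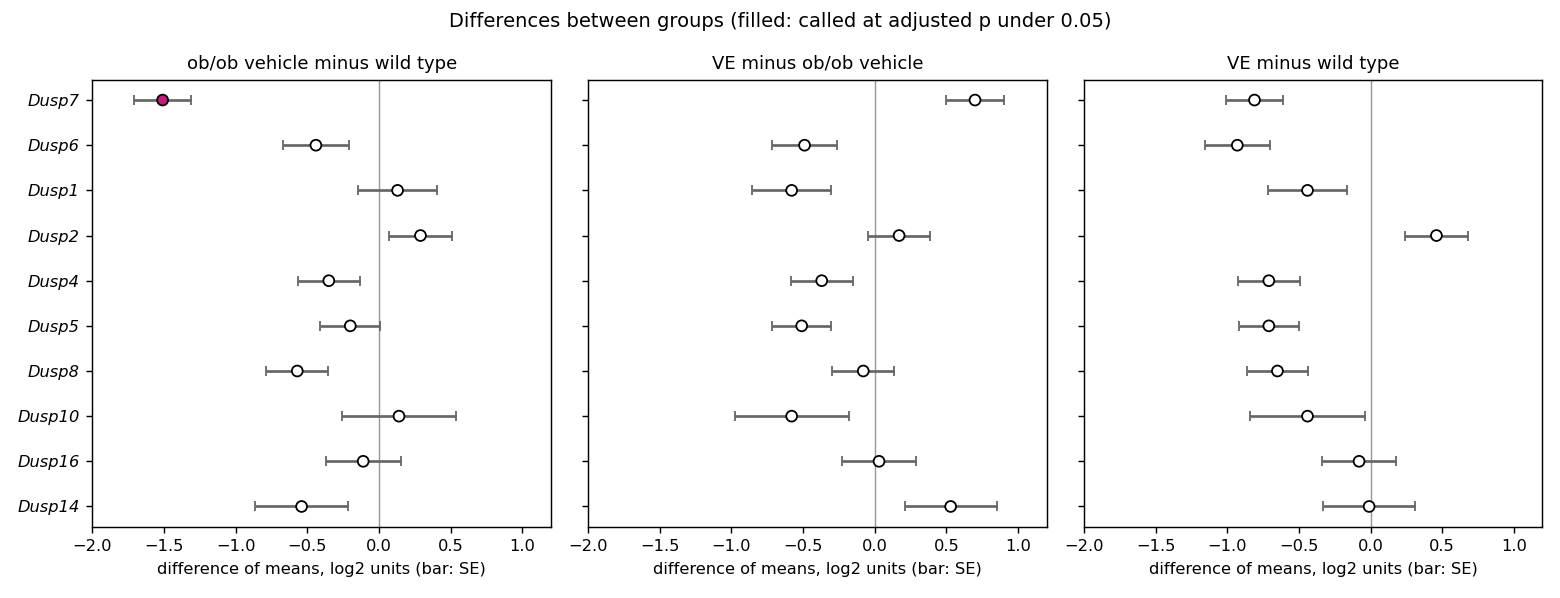
Difference of group means in log2 units (horizontal axis; bar, SE from limma, n = 3 per group) for the 10 phosphatase genes (vertical axis) in the 3 comparisons, with a filled point where the probe set was called. Dusp7 at -1.51 in ob/ob vehicle against wild type is the 1 filled point. In VE against wild type Dusp4, Dusp5, Dusp6, Dusp7 and Dusp8 lie between -0.93 and -0.65.

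Among the nuclear phosphatases, only Dusp4 and Dusp5 had every VE array below all others, and no difference passed the test. Dusp5, which acts on ERK in the nucleus, had values of 9.06, 9.26 and 9.38 in wild type, 9.28, 9.04 and 8.78 in ob/ob vehicle and 8.55, 8.34 and 8.69 in VE. All VE arrays lay under all others. Its difference was -0.51 from ob/ob vehicle (SE 0.208, limma adjusted p 0.308) and -0.71 from wild type (SE 0.208, adjusted p 0.209), while ob/ob vehicle and wild type overlapped (-0.20, SE 0.208, adjusted p 0.620, and -0.05 after quantile normalization). Dusp4, which acts on ERK and JNK, had values of 6.01, 6.76 and 6.27 in wild type, 5.98, 6.10 and 5.92 in ob/ob vehicle and 5.60, 5.69 and 5.61 in VE. The VE arrays again lay under all others, in a probe set whose mean of 5.99 was below the median level of 7.13. VE differed by -0.37 from ob/ob vehicle (SE 0.217, adjusted p 0.505, and -0.24 with arrays centred) and by -0.71 from wild type (SE 0.217, adjusted p 0.220).

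Dusp1, the immediate early phosphatase that acts on p38, JNK and ERK, overlapped between all groups and had its lowest mean in VE. Its values were 11.12, 10.82 and 10.86 in wild type, 11.70, 10.73 and 10.77 in ob/ob vehicle and 10.85, 10.23 and 10.39 in VE. The first ob/ob vehicle array was highest of all 9. Without it the difference of ob/ob vehicle from wild type went from 0.13 (SE 0.274, limma adjusted p 0.813) to -0.18, and that of VE from ob/ob vehicle from -0.58 (SE 0.274, adjusted p 0.388) to -0.26. Dusp2, a phosphatase best known from immune cells, was dim, from 5.37 on a wild-type array to 6.33 on a VE array. With the deposited values it was the 1 member with a positive difference of VE from wild type (0.46, SE 0.218, adjusted p 0.423, and 0.30 without wild-type array 2).

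The hippocampal marker list (Prox1, Dsp, C1ql2, Wfs1, Lct and Tdo2) was also lowest in VE, with no marker called. Its mean over 6 markers spanned 8.12 to 8.65 in wild type, 7.73 to 8.05 in ob/ob vehicle and 7.27 to 7.50 in VE, with 0 of 6 called in any comparison by limma and 5 of 6 lower in VE than in wild type at unadjusted p under 0.05, where 9.21% of all probe sets were lower. Between ob/ob vehicle and VE 2 of 6 were lower at that threshold, beside 10.1% of all probe sets. General neuronal markers spanned 15.15 to 15.55, 14.50 to 14.98 and 13.32 to 15.20, the lowest on VE array 2. Their part in the values of Dusp4, Dusp5 and Dusp6 was not tested.

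Of the phosphatases that prefer JNK and p38, Dusp8 was lower in both ob/ob groups than in wild type, short of the call. Dusp8, a phosphatase abundant in brain, had values of 11.80, 11.31 and 11.36 in wild type, 11.00, 10.75 and 11.00 in ob/ob vehicle and 11.08, 10.60 and 10.84 in VE. Both ob/ob groups lay below wild type without overlap and overlapped with each other. The differences from wild type were -0.57 in ob/ob vehicle (SE 0.216, limma adjusted p 0.165) and -0.65 in VE (SE 0.216, adjusted p 0.255), and VE differed from ob/ob vehicle by -0.08 (SE 0.216, adjusted p 0.916). After quantile normalization the differences from wild type were smaller, -0.32 and -0.36. Dusp10 spanned 7.75 to 7.95 in wild type and 7.99 to 8.05 in ob/ob vehicle, and stood at 7.99, 6.17 and 8.18 in VE. The low value is VE array 2, the array that stood apart from the rest, and without it the difference of VE from ob/ob vehicle went from -0.58 (SE 0.398, adjusted p 0.569) to 0.06. Dusp16 ranged from 6.27 to 7.24, both on VE arrays, and its 3 differences lay between -0.11 and 0.03 (SE 0.261, adjusted p 0.841 to 0.976).

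Dusp14, the atypical member, spread widely within groups. It stood at 12.20, 11.00 and 11.54 in wild type, at 11.50, 10.59 and 11.03 in ob/ob vehicle and at 11.95, 11.20 and 11.56 in VE. All groups overlapped. Differences were -0.54 for ob/ob vehicle from wild type (SE 0.322, limma adjusted p 0.365), 0.53 for VE from ob/ob vehicle (SE 0.322, adjusted p 0.518) and -0.01 for VE from wild type (SE 0.322, adjusted p 0.993), the last turning to 0.30 after quantile normalization. The first was -0.28 after quantile normalization, -0.23 without wild-type array 1, -0.31 without ob/ob array 2 and -0.83 without wild-type array 2, and the second was 0.30 without ob/ob array 2 and 0.34 without VE array 1. Dusp9, the remaining cytoplasmic ERK phosphatase of the family and not a member of the set, was dim, with 4.56 to 5.31 in wild type, 4.70 to 5.20 in ob/ob vehicle and 4.73 to 5.44 in VE, and its differences were 0.01, 0.15 and 0.16 (SE 0.263, adjusted p 0.828 to 0.990).

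Over the 10 members, the median difference was -0.27 in ob/ob vehicle against wild type, -0.22 in VE against ob/ob vehicle and -0.55 in VE against wild type, where the medians of all probe sets were 0.02, -0.07 and -0.07. Those of the 7402 brightest probe sets, among which Dusp1, Dusp5, Dusp6, Dusp7, Dusp8 and Dusp14 lie, were -0.27, -0.04 and -0.28. After quantile normalization the members' medians were -0.24, -0.15 and -0.38, and those of the brightest probe sets -0.04, 0.04 and 0.002. Limma called 0 members in VE against ob/ob vehicle and 0 in VE against wild type, where 0.486% (0.0135% higher, 0.473% lower) and 0.0991% of probe sets were called. At unadjusted p under 0.05 with a fold over 1.1, the study's own rule, the counts were 2 of 10 in ob/ob vehicle against wild type (Dusp7 and Dusp8, both lower), 2 of 10 in VE against ob/ob vehicle (Dusp7 higher, Dusp5 lower) and 5 of 10 in VE against wild type (Dusp4, Dusp5, Dusp6, Dusp7 and Dusp8, all lower). That rule took 20.1% of all probe sets in the first comparison (9.88% higher, 10.2% lower), 13.3% in the second (3.21% higher, 10.1% lower) and 12.2% in the last (2.98% higher, 9.21% lower). Groups did not overlap for 3, 3 and 6 members in the 3 comparisons, against 33.3% (15.8% higher, 17.5% lower), 16.5% (4.62% higher, 11.9% lower) and 16.8% (5.34% higher, 11.5% lower) of all probe sets. They were Dusp7 and Dusp8 lower and Dusp10 higher in the first, Dusp7 higher and Dusp4 and Dusp5 lower in the second, and Dusp2 higher and Dusp4, Dusp5, Dusp6, Dusp7 and Dusp8 lower in the last. Since the members were chosen with these results known, no test was put on the shares.

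The 5 genes most like Dusp7 over the 9 arrays were Kcnj10, Scd1, Chchd10, Sox9 and Bhlhe40. Likeness was the root mean square difference between profiles, each centred on its own mean, among 9731 other genes above the median level. It was 0.144 log2 units for Kcnj10, an inward rectifier potassium channel of astrocytes, and 0.144 for Scd1, a fatty acid desaturase. For Chchd10, a mitochondrial protein, it was 0.152, for the astrocyte transcription factor Sox9 0.180, and for the transcriptional repressor Bhlhe40 0.185. Kcnj10 stood at 11.42, 11.41 and 11.59 in wild type, 10.43, 9.84 and 9.86 in ob/ob vehicle and 10.88, 10.56 and 10.90 in VE. In all 5 the VE mean lay between the ob/ob vehicle and the wild-type mean, a pattern that their choice fixes. Among the other 6 members above the median level the nearest was Dusp8, at rank 981 with 0.444, while Dusp6 had rank 3257 with 0.554 and Dusp10 rank 9009 with 0.888.

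**Figure D3:**
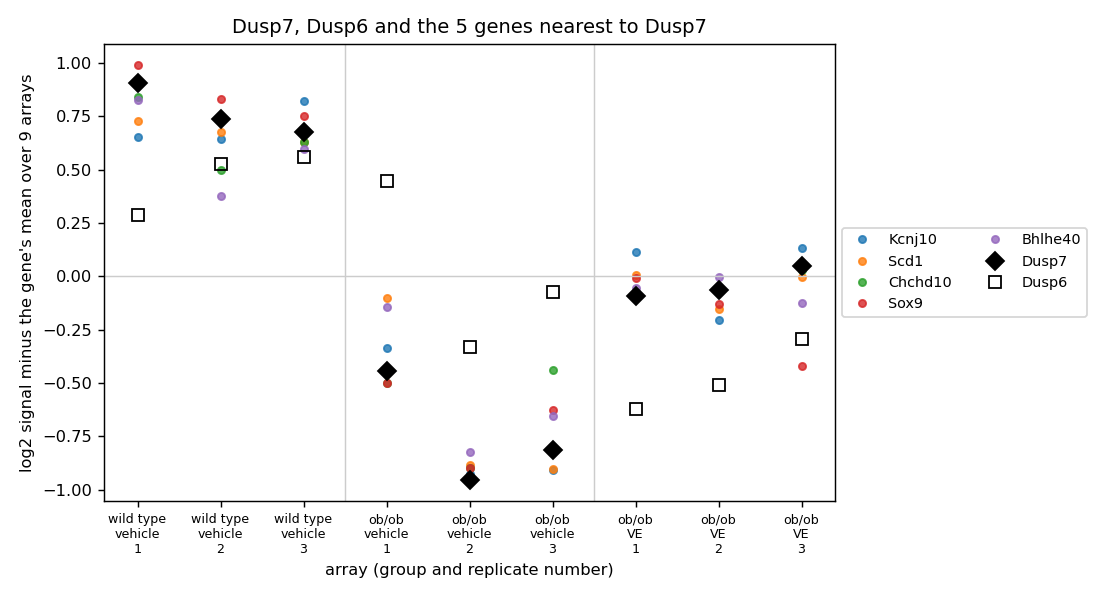
Log2 signal minus the gene's own mean over 9 arrays (vertical axis) on each array, by group and replicate number (horizontal axis), for Dusp7 (diamonds), Dusp6 (open squares) and the 5 genes nearest to Dusp7 (dots). Dusp7 and its neighbours have their lowest means in the ob/ob vehicle group, while Dusp6 has its lowest mean in the VE group.

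The wider pathway was followed in 13 lists of 178 genes, of which 160 had a named probe set. The 18 others were not analysed here. Limma called 3 of 160 in ob/ob vehicle against wild type, 1 in VE against ob/ob vehicle and 4 in VE against wild type, and each of these was lower in the group named first. Of all probe sets 1.27%, 0.486% and 0.0991% were called in the 3 comparisons, and 0.73%, 0.473% and 0.0991% were called lower. These shares also stand beside the calls given below for single lists. The lists' medians in ob/ob vehicle against wild type ran from -0.52 for scaffolds to 0.01 for kinases downstream of MAP kinases. After quantile normalization these lists had medians of -0.23 and -0.10, and the ends were transcription factor substrates (-0.43) and tyrosine phosphatases (-0.01). At unadjusted p under 0.05, a threshold also given for some lists, 20.1%, 13.3% and 12.2% of all probe sets differed in the 3 comparisons.

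Of the growth factor ligands 1 of 16 was called lower in ob/ob vehicle than in wild type and 0 higher. Igf2, an insulin-like growth factor made by the choroid plexus and meninges, stood at 12.85, 12.59 and 12.97 in wild type, 11.48, 10.32 and 10.86 in ob/ob vehicle and 11.82, 11.73 and 11.25 in VE. In ob/ob vehicle it fell by 1.92 (SE 0.281), without overlap of the groups. Limma's adjusted p was 0.0193, and 0.00169 to 0.143 under the alternatives. Choroid plexus markers (mean of 6) spanned 10.20 to 11.42 in wild type, 8.60 to 10.04 in ob/ob vehicle and 9.23 to 10.11 in VE, and their part in the Igf2 value was not tested. Receptor tyrosine kinases gave 1 call of 14, with 0 higher. Fgfr1, a receptor for fibroblast growth factors upstream of ERK, stood at 7.87, 8.30 and 8.20 in wild type, 7.01, 6.92 and 7.08 in ob/ob vehicle and 7.58, 6.98 and 6.88 in VE, and fell by 1.12 in ob/ob vehicle (SE 0.227, adjusted p 0.0401, and 0.00413 to 0.186 under the alternatives). The Igf2 call ended without any single one of ob/ob arrays 2 and 3 and the 3 wild-type arrays (adjusted p 0.0845 to 0.143), and the Fgfr1 call without any single ob/ob vehicle or wild-type array or VE array 3 (0.0517 to 0.186). In VE against ob/ob vehicle Fgfr3, a receptor of astrocytes, had the smallest p among the receptors (0.77, adjusted p 0.184).

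Between the receptor and the kinases, Gab1 and Ksr1 had lower signals after VE than those of wild type. Gab1, an adaptor that links receptors to Ras, stood at 8.77, 9.10 and 8.70 in wild type, 8.38, 7.96 and 7.63 in ob/ob vehicle and 7.54, 7.36 and 7.53 in VE. It fell by 1.38 in VE against wild type (SE 0.226, with a limma adjusted p of 0.0472, and 0.0245 to 0.281 under the alternatives), the 1 call among 17 Ras proteins and regulators. Ksr1, a scaffold that holds Raf, MEK and ERK together, stood at 10.58, 10.87 and 10.36 in wild type, 9.83, 9.99 and 9.98 in ob/ob vehicle and 9.38, 9.40 and 9.41 in VE. For both genes every ob/ob vehicle array lay below wild type and every VE array below ob/ob vehicle. Ksr1 fell by 1.21 in VE against wild type (SE 0.196, adjusted p 0.0472, and 0.0200 to 0.269 under the alternatives), the 1 call among 9 scaffolds. Mapk8ip1, a JNK scaffold, was nearest to a call in ob/ob vehicle against wild type (-0.85, adjusted p 0.0597). Both calls ended after quantile normalization (adjusted p 0.167 for Gab1 and 0.208 for Ksr1) and without any single ob/ob vehicle or wild-type array or VE array 3 (0.0788 to 0.281 for Gab1 and 0.0819 to 0.269 for Ksr1).

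No kinase of the cascade was called by limma in any comparison. This holds for 20 MAP3K and Raf kinases, 6 MAP2K kinases, 12 MAP kinases and 7 kinases downstream of them. At unadjusted p under 0.05, 1, 1, 3 and 0 of them differed in ob/ob vehicle against wild type, 0, 0, 2 and 2 in VE against ob/ob vehicle, and 1, 1, 2 and 1 in VE against wild type. In ob/ob vehicle against wild type the smallest p values belonged to Map3k2 (-0.85, SE 0.296, adjusted p 0.143), Map2k1, which phosphorylates ERK (-0.58, SE 0.194, adjusted p 0.133), Mapk12, a p38 kinase (0.65, SE 0.202, adjusted p 0.110), and Mknk2, an ERK-activated kinase (0.44, SE 0.214, adjusted p 0.270). In VE against ob/ob vehicle the nearest to a call were Mapk11, another p38 kinase (0.69, SE 0.250, adjusted p 0.247), and Rps6ka5, which phosphorylates histones and CREB (0.63, SE 0.218, adjusted p 0.223). In VE against wild type Map2k6, which phosphorylates p38, had a difference of -0.86 (SE 0.291, adjusted p 0.259, and a difference of -1.02 to -0.47 under the alternatives). Its VE array 2 stood at 7.75, against 8.65 and 8.69 on VE arrays 1 and 3.

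The other brakes on the pathway gave no call either. Among 16 other dual-specificity phosphatases 4, 1 and 1 were lower at unadjusted p under 0.05 in the 3 comparisons, and 0, 1 and 1 higher. Over all probe sets 10.2%, 10.1% and 9.21% were lower at that threshold, and 9.88%, 3.21% and 2.98% higher. Dusp3, a small phosphatase of ERK and JNK, had the smallest p in ob/ob vehicle against wild type (-0.76, SE 0.242, limma adjusted p 0.119), Dusp26 in VE against ob/ob vehicle (0.70, SE 0.211, adjusted p 0.158) and Dusp18 in VE against wild type (-0.61, SE 0.207, adjusted p 0.258). The 3 tyrosine phosphatases of MAP kinases, Ptpn5, Ptpn7 and Ptprr, had 0 members at unadjusted p under 0.05 in any comparison. Of 10 feedback inhibitors, 2, 1 and 3 were lower at unadjusted p under 0.05 in the 3 comparisons and 0 higher, beside the shares above. Those nearest to a call were Pebp1, which binds Raf (-0.95 in ob/ob vehicle against wild type, SE 0.290, adjusted p 0.104), Spry1, a Sprouty inhibitor (-0.90 in VE against ob/ob vehicle, SE 0.330, adjusted p 0.250, with VE array 2 at 5.73 against 6.89 and 7.32), and Errfi1, an inhibitor of the EGF receptor (-0.92 in VE against wild type, SE 0.225, adjusted p 0.145).

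At the nuclear end, 1 of 13 transcription factor substrates was called lower in ob/ob vehicle than in wild type. At unadjusted p under 0.05, 6, 0 and 6 of the 13 were lower in the 3 comparisons and 0, 1 and 0 higher. Over all probe sets 10.2%, 10.1% and 9.21% were lower at that threshold, and 9.88%, 3.21% and 2.98% higher. Ets2, an ERK-phosphorylated ETS factor, stood at 9.29, 8.56 and 8.75 in wild type, 7.72, 8.09 and 7.58 in ob/ob vehicle and 8.65, 8.36 and 8.24 in VE. In ob/ob vehicle it fell by 1.07 (SE 0.240). Limma's adjusted p was 0.0499, and 0.00754 to 0.213 under the alternatives, and the call ended without any single ob/ob vehicle or wild-type array or VE array 3 (0.0652 to 0.213). The VE arrays of Ets2 lay above ob/ob vehicle without overlap (0.62, SE 0.240, adjusted p 0.275). Etv1, another ETS factor, had a difference of -1.11 in VE against wild type (SE 0.219, adjusted p 0.0779). Of 17 immediate early transcripts 0, 6 and 4 were lower at unadjusted p under 0.05 in the 3 comparisons, and 0 higher. Limma called 0 of the 17 in ob/ob vehicle against wild type, 1 lower in VE against ob/ob vehicle and 2 lower in VE against wild type. The called genes were the orphan receptors Nr4a2 and Nr4a3. Nr4a2 fell by 1.82 against ob/ob vehicle (SE 0.267, adjusted p 0.0334, and 0.00837 to 0.209 under the alternatives). Its difference from wild type was -1.63 (SE 0.267, adjusted p 0.0472, and 0.0200 to 0.314 under the alternatives). Nr4a3 fell by 1.95 against wild type (SE 0.320, adjusted p 0.0472, and 0.00657 to 0.315 under the alternatives, with 0.227 after quantile normalization). After quantile normalization neither was called against wild type. Nr4a1, of the same list, had means of 9.43 in wild type, 9.21 in ob/ob vehicle and 9.46 in VE. Nr4a3 stood at 13.40, 14.89 and 14.39 in wild type, 14.11, 13.51 and 13.57 in ob/ob vehicle and 12.16, 12.38 and 12.29 in VE, so that its VE arrays, like those of Dusp4 and Dusp5, lay under all others. The Nr4a2 call against ob/ob vehicle ended without any single ob/ob vehicle array or wild-type array 2 or 3 (0.0656 to 0.209). The calls of Nr4a2 and Nr4a3 against wild type ended without any single ob/ob vehicle array, wild-type array 2 or 3 or VE array 3 (0.0876 to 0.315).

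**Figure D4:**
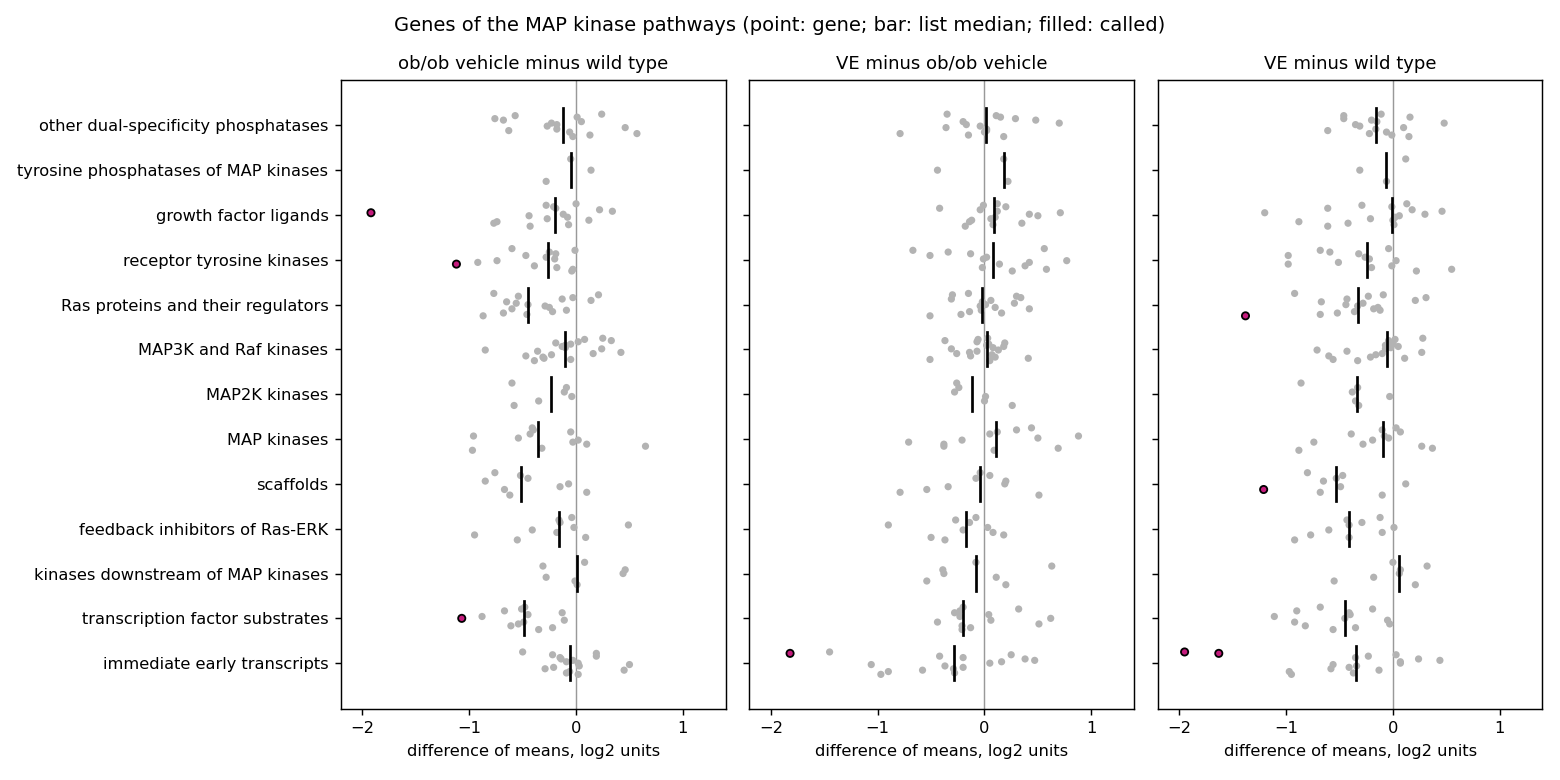
Difference of group means in log2 units (horizontal axis) for the measured genes of 13 lists of MAP kinase pathways (vertical axis) in the 3 comparisons, with 1 point per gene, a bar at the list median and filled points for called genes. Filled points are 3, 1 and 4 in number from left to right, all below 0.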

How the data were processed

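Per the labels and the design text, the authors ran SST-RMA (signal space transformation with robust multi-chip averaging) in Transcriptome Analysis Console 4.0.2, and the deposited values are log2 signals of 22206 probe sets on 9 arrays. The aligner of probes to a genome build is not given in the sources used here. Of the probe sets, 19572 carried 1 gene symbol in the platform annotation and 2634 carried none here. The members and all gene lists were chosen with earlier results of these data known.

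Group means were fitted with limma 3.58.1 in R 4.3.3 over the 9 arrays without further normalization (6 residual and 7.03 prior degrees of freedom), with Benjamini-Hochberg adjustment over all probe sets and calls at adjusted p under 0.05. Where several probe sets shared a symbol, the brightest on average was taken. The genes named come from the members, up to 4 called genes per pathway list and comparison (otherwise the 1 with the smallest p), and the 5 genes nearest to Dusp7. The number of arrays, 3 per group, limits the precision: the members had an SE of 0.200 to 0.398. The study's detection filters (0.05 and 0.7) were not used here. Any pair of arrays had equal values in 0.513% to 1.69% of probe sets, so all 9 were kept as separate samples. The scripts were tested on simulated data. Alternatives were the study's rule, trend and robust moderation, quantile, median and cyclic loess scaling, bright probe sets alone, the compared groups alone, the replicate number as a block, and leaving out each array.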

Additional observations from a re-analysis of the deposited data

How the results depend on the processing

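The count of probe sets called in ob/ob vehicle against wild type (281) was 4457 by the study's rule, 631 after quantile normalization, 614 with arrays centred, 808 after cyclic loess, 2626 with the compared groups alone, 1970 after quantile normalization without VE array 2, and 0 to 2975 with 1 array left out. In VE against ob/ob vehicle (108) it was 2962 by the study's rule, 225 with trend and robust moderation, 324 after quantile normalization, 71 with arrays centred, 376 after cyclic loess, 180 among probe sets above the median level, 0 with the compared groups alone, 418 after quantile normalization without VE array 2, and 0 to 403 with 1 array left out. In VE against wild type (22) it was 2707 by the study's rule, 10 with trend and robust moderation, 0 after quantile normalization, 7 with arrays centred, 0 after cyclic loess, 49 above the median level, 0 with the compared groups alone, and 0 to 158 with 1 array left out. Members called were 1, 0 and 0, by the study's rule 2, 2 and 5, and with 1 array left out 0 to 1, 0 and 0. Pathway genes called in ob/ob vehicle against wild type (3) were 35 by the study's rule, 8 with arrays centred, 5 after cyclic loess, 22 with the compared groups alone, 13 after quantile normalization without VE array 2, and 0 to 25 with 1 array left out. In VE against ob/ob vehicle (1) they were 21 by the study's rule, 2 after quantile normalization, 3 after cyclic loess, 2 above the median level, 0 with the compared groups alone, 2 after quantile normalization without VE array 2, and 0 to 2 with 1 array left out. In VE against wild type (4) they were 37 by the study's rule, 1 with trend and robust moderation, 0 after quantile normalization, centring or cyclic loess, with the compared groups alone, or after quantile normalization without VE array 2, and 0 to 6 with 1 array left out. The causes were not tested.

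The replicate number as a block gave 1 pathway gene called in ob/ob vehicle against wild type, 251 probe sets called and 1 member, with 144 probe sets, 0 members and 1 pathway gene in VE against ob/ob vehicle and 2 probe sets, 0 members and 0 pathway genes in VE against wild type. The calls of Fgfr1 (adjusted p 0.0507, limma) and Ets2 (0.0508) in ob/ob vehicle against wild type and those of Gab1, Ksr1, Nr4a2 and Nr4a3 in VE against wild type (0.0711 each) ended with this block. Same-numbered arrays had deviations from their group means that correlated at -0.03 to 0.33, so the numbers were not taken as pairs.

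Of 531 member values under alternatives 19 turned sign, all of differences that were not called. Against wild type, ob/ob vehicle ran with 1 array left out from -0.18 to 0.30 for Dusp1 and from -0.22 to 0.04 for Dusp16. Against ob/ob vehicle, VE turned for Dusp8 to 0.05 with arrays centred (and ran from -0.20 to 0.04 with 1 array left out), for Dusp10 to 0.05 after quantile normalization without VE array 2 (-0.95 to 0.06 with 1 array left out), and for Dusp16 ran from -0.24 to 0.24 with 1 array left out, -0.12 without ob/ob array 3. Against wild type, VE turned for Dusp10 to 0.23 and for Dusp16 to 0.11 after quantile normalization without VE array 2 and ran with 1 array left out from -0.80 to 0.20 for Dusp10 and from -0.35 to 0.13 for Dusp16 (0.03 without wild-type array 1). It turned for Dusp14 to 0.30 after quantile normalization, 0.04 with arrays centred, 0.29 after cyclic loess, 0.26 after quantile normalization without VE array 2, and ran from -0.30 to 0.30 with 1 array left out (0.17 without VE array 2). Ptpn5 turned to 0.01 after cyclic loess (ob/ob vehicle against wild type) and Mapk10 to 0.01 after quantile normalization (VE against wild type). Which member levels are above background is not given in the deposited values.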
